A study of Mus musculus with 9 samples.

Results

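Gene expression was compared between D-ME-iPSC, cells differentiated in culture from induced pluripotent stem cells (iPSCs) that had been made from mouse mammary epithelial (ME) cells, and ME, the freshly isolated ME cells that served as the study's control. The comparison used 5 of the 9 arrays of the series, chosen by their titles: 3 of D-ME-iPSC (replicates 1 to 3) and 2 of ME (replicates 2 and 3). The array labelled ME replicate 1 was left out of the ME group because its values correlated above 0.99 with every D-ME-iPSC array, and it is shown beside the others throughout. That choice was made on array values, and every call below depends on it. Its closeness to D-ME-iPSC in single genes restates that choice and is given as a description. With that array counted as ME, as its label says, 0 of 20422 genes passed limma's test after adjustment and 3857 had an unadjusted p under 0.05 (18.9% of the genes).

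The iPSCs came from ME cells of virgin female mice aged 2 and 6 months that had received Oct4, Sox2, Klf4 and c-Myc by retrovirus and an EGFP reporter of pluripotency by lentivirus. They were then differentiated stepwise on Matrigel, a gel of basement membrane proteins, in ME growth medium. Age and strain of the mice behind the ME arrays, the number of iPSC clones and whether replicates were separate animals or cultures are unstated in the sources read for this work. The p-values therefore measure the spread between these arrays, which may be partly technical. The remaining 3 arrays were D-TF-iPSC (cells differentiated alike from iPSCs that began as tail-tip fibroblasts). They entered the test of D-ME-iPSC against ME only to estimate the spread. Their values are mentioned where they help to place a gene, and for Dsg3 their difference from ME is given with its test from the same model. The spread was pooled over the groups and rests mostly on the iPSC-derived arrays, which varied less than ME (median SDs below). The p-values may therefore understate the spread of ME.

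A gene value is the mean log2 signal of the gene's probe sets on an Affymetrix mouse gene array, so a difference of 1 is a 2-fold change. Differences are given as D-ME-iPSC minus ME. A single signed number in parentheses after a gene is that log2 difference, a range is its 95% interval, and genes called higher or lower passed limma at an adjusted p under 0.05. Over 20422 genes, the D-ME-iPSC arrays correlated with each other at r = 0.995 to 0.996, the 2 ME arrays with each other at 0.973, and the D-ME-iPSC arrays with ME at 0.927 to 0.950 (across genes, which are not independent replicates). The array labelled ME replicate 1 correlated at 0.991 to 0.993 with D-ME-iPSC and at 0.920 and 0.943 with the ME arrays. The median SD of a gene was 0.088 in D-ME-iPSC, 0.086 in D-TF-iPSC and 0.159 in ME, and 467 genes differed by 1 or more between the ME arrays. In total 7899 genes (38.7%) passed an adjusted p of 0.05, 4818 higher in D-ME-iPSC (23.6%) and 3081 lower (15.1%). Of these, 1153 were higher by at least 2-fold (5.65%) and 504 were lower by at least 2-fold (2.47%). The median difference over all genes was -0.05. The shares of 38.7% called, 23.6% higher and 15.1% lower are the background for the counts of each gene list below.

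The mammary epithelium is a bilayer. Inner luminal cells include progenitors, hormone-sensing cells and the cells that become milk-secreting alveoli, and outer basal cells contract to eject milk. Milk protein genes respond to prolactin through the transcription factor STAT5, and luminal factors such as ELF5 act with it. The contractile basal cells share actin, myosin and calponin genes with smooth muscle. A fresh preparation can also hold fibroblasts, fat cells, vessels and blood cells of the gland.

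As a check of the labelled cell type, 20 genes of epithelial identity were compared, and 6 were higher and 5 lower in D-ME-iPSC (55% called, against 38.7% of all genes, with a median of 0.05). Of the 9 that did not pass, 7 are given by value, chosen after their values were seen. Krt8 and Krt18, keratins of luminal cells, stood at 13.05, 13.11 and 12.96 in D-ME-iPSC and 13.11 and 12.77 in ME, and at 12.81, 12.83 and 12.85 in D-ME-iPSC and 12.89 and 12.63 in ME. Cdh1, the epithelial cadherin, stood at 11.70, 11.57 and 11.57 in D-ME-iPSC and 11.70 and 11.36 in ME, and Epcam, an epithelial adhesion molecule, at 10.38, 10.47 and 10.43 in D-ME-iPSC and 10.68 and 10.41 in ME. The arrays of both groups overlapped for all of these, with 95% intervals of the difference of -0.25 to 0.46 for Krt8, -0.30 to 0.43 for Krt18, -0.20 to 0.37 for Cdh1 and -0.37 to 0.15 for Epcam. Esrp1, an epithelial splicing factor, differed by -0.11 (-0.35 to 0.14), Krt19 by -0.01 (-0.33 to 0.30) and Cd24a by 0.02 (-0.27 to 0.32). The higher members of the list included Krt7, a simple-epithelial keratin (1.83), the protease inhibitor Spint1 (0.94) and the transcription factor Grhl2 (0.86). The lower members included the protease Prss8 (-0.91) and the transcription factors Grhl1 (-0.82), Elf3 (-0.73) and Ovol1 (-0.68). The Grhl2 difference was 0.56 without ME replicate 2.

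Of the 7 genes chosen to mark the comparison, Elf5 and Csn2 were lower in D-ME-iPSC and Aldh1a3, Cldn4, Cldn7, Actg2 and Adamts6 were higher. The luminal progenitor genes among them, Elf5 and Aldh1a3, thus lay on opposite sides. Elf5, the transcription factor of alveolar and luminal progenitor cells, stood at 8.38, 8.73 and 8.64 in the D-ME-iPSC arrays, against 11.52 and 10.62 in the ME arrays (difference -2.48, SE 0.23, adjusted p = 3.81e-05). Csn2, which encodes β-casein, stood at 8.64, 8.60 and 8.77 in the D-ME-iPSC arrays, against 12.17 and 12.48 in the ME arrays (difference -3.65, SE 0.13, adjusted p = 1.84e-07). For both genes the D-ME-iPSC arrays lay below the ME arrays with no overlap, as was so, in either direction, for 57% of all genes (29.5% above ME and 27.5% below it), and every probe set of the gene lay the same way (9 of 9 and 5 of 5). Aldh1a3, a retinaldehyde dehydrogenase of luminal progenitors, stood at 10.07, 10.04 and 10.11 in the D-ME-iPSC arrays, against 7.75 and 8.21 in the ME arrays (difference 2.10, SE 0.13, adjusted p = 3.91e-06). Cldn4 and Cldn7 encode claudins, the strand proteins of tight junctions. Cldn4 stood at 9.74, 9.54 and 9.53 in the D-ME-iPSC arrays, against 8.57 and 8.58 in the ME arrays (difference 1.02, SE 0.17, adjusted p = 0.00116). Cldn7 stood at 9.02, 8.75 and 8.94 in the D-ME-iPSC arrays, against 8.23 and 7.65 in the ME arrays (difference 0.97, SE 0.16, adjusted p = 0.00118), and its call was lost when the median of its probe sets was used (0.27). Actg2, a smooth muscle actin of contractile cells, stood at 10.35, 10.43 and 10.42 in the D-ME-iPSC arrays, against 7.36 and 9.44 in the ME arrays (difference 2.00, SE 0.45, adjusted p = 0.00627). The ME arrays were far apart for Actg2, and the difference was 0.95 without ME replicate 2 and 3.04 without ME replicate 3. Adamts6, a secreted metalloprotease, stood at 7.92, 7.96 and 7.95 in the D-ME-iPSC arrays, against 5.56 and 5.26 in the ME arrays (difference 2.54, SE 0.10, adjusted p = 4.82e-07), and 22 of its 29 probe sets lay higher in every D-ME-iPSC array, but its brightest probe set differed by -0.60.

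**Figure D1:**
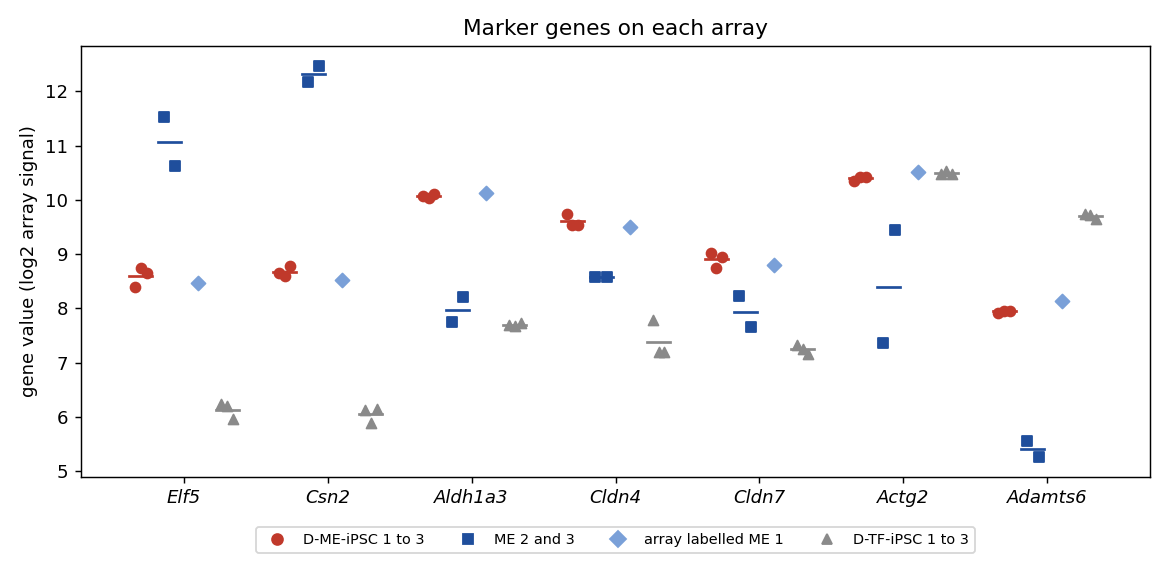
Gene values (log2 array signal) of the 7 marker genes on each array; points are arrays, short bars are group means, and the array labelled ME replicate 1 is drawn apart. D-ME-iPSC arrays lie below ME 2 and 3 for Elf5 and Csn2 and above them for the other genes, and the array labelled ME replicate 1 lies beside the D-ME-iPSC arrays for every gene.

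On the array labelled ME replicate 1, Elf5 read 8.46, Csn2 8.52, Aldh1a3 10.13, Cldn4 9.50, Cldn7 8.80, Actg2 10.51 and Adamts6 8.14. D-TF-iPSC averaged 6.13 for Elf5 and 6.05 for Csn2, below D-ME-iPSC as well as ME, while Actg2 (10.50) was close to its D-ME-iPSC mean of 10.40 and Adamts6 (9.70) was above it. Including the array labelled ME replicate 1 in ME left the marker differences in the same direction, between -2.38 for Csn2 and 1.63 for Adamts6, with none past the threshold.

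Milk protein genes were lower in D-ME-iPSC as a list. Of 18 genes of milk proteins and the milk fat globule, 14 were lower in D-ME-iPSC, 1 was higher and 3 did not pass the test, with a median of -1.61 against -0.05 over all genes. Csn1s2a, an α-S2-like casein, stood at 6.43, 6.75 and 6.50 in the D-ME-iPSC arrays, against 12.46 and 12.40 in the ME arrays (difference -5.87, SE 0.14, adjusted p = 3.05e-08), a 58.7-fold lower signal and the lowest difference among called genes whose arrays did not overlap. Glycam1, a mucin-like milk protein, stood at 6.73, 7.07 and 7.01 in the D-ME-iPSC arrays, against 12.02 and 11.18 in the ME arrays (difference -4.67, SE 0.21, adjusted p = 8.04e-07). Muc15, a membrane mucin of the milk fat globule, stood at 8.52, 8.55 and 8.42 in the D-ME-iPSC arrays, against 12.25 and 12.12 in the ME arrays (-3.69). These signals differed by far more than the arrays of either group differed among themselves. The remaining caseins were also lower, among them Csn3, κ-casein (-2.04), Csn1s1 (-1.70) and Csn1s2b (-1.67). Xdh, whose xanthine oxidoreductase coats milk fat droplets, differed by -2.31 and Btn1a1, butyrophilin of the same coat, by -1.28. Within the list the ME arrays differed most for Wap, the whey acidic protein, at 6.81, 6.52 and 6.57 in D-ME-iPSC and 9.36 and 7.01 in ME, and for the bile salt lipase gene Cel, at 5.99, 5.81 and 5.98 in D-ME-iPSC and 9.33 and 6.89 in ME. Lalba, α-lactalbumin, was also lower, with a difference of -0.45 (SE 0.11). Spp1, osteopontin, was the only higher member, at 11.97, 11.93 and 11.95 in the D-ME-iPSC arrays, against 10.42 and 10.98 in the ME arrays (1.25). The fat globule genes Plin2 (0.26, -0.02 to 0.54), Mfge8 (0.18, -0.04 to 0.39) and Muc1 (0.00, -0.28 to 0.28) did not pass the test. Without ME replicate 2 the list had 13 lower members and without ME replicate 3 it had 14. In bulk RNA, fewer cells that make a transcript cannot be told apart from less of it per cell. Without ME replicate 2, the differences were -0.98 for Csn1s2b, -0.96 for Cel and -0.37 for Wap, and the Wap call was lost on leaving out any array but ME replicate 3. Without ME replicate 3, Wap differed by -2.72 and Cel by -3.40.

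The start regions of Csn2, Csn1s2a, Csn1s1 and Glycam1 are shown because these milk protein genes were lower than in ME and share a letter pattern. TTCNNNGAA (N is any base), the palindromic core that STAT factors recognise, was searched in 300 bases around each gene start, from 250 before to 50 after it (RefSeq, build GRCm38.p6). It lay in 4 of 12 milk protein genes with a start region in the table, Csn2, Csn1s2a, Csn1s1 and Glycam1, against 9.55% of all genes in the table (8.30% of all 32851 start regions). As a palindrome it reads the same on both strands. Capitals mark the match in the sequences below, which run 5′ to 3′ on the gene's strand.
Csn2, chr5:87699376-87699675, minus strand: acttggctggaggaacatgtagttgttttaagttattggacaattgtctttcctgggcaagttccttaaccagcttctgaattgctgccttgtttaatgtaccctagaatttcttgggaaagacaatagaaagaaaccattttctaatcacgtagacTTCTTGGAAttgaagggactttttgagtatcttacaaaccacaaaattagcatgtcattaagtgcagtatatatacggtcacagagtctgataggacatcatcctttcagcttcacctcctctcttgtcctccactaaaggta
Csn1s2a, chr5:87774200-87774499, plus strand: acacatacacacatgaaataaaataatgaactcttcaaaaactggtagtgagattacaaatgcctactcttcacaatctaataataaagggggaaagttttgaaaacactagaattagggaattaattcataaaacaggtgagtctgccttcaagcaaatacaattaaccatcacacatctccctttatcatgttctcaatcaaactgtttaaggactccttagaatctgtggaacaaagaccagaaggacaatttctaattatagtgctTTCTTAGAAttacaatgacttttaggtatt
Csn1s1, chr5:87665958-87666257, plus strand: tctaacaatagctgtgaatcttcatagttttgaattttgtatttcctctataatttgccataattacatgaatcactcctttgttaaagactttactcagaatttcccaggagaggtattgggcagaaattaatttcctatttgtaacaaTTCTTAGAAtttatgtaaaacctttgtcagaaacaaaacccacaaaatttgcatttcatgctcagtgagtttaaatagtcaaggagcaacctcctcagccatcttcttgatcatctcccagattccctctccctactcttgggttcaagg
Glycam1, chr15:103565032-103565331, minus strand: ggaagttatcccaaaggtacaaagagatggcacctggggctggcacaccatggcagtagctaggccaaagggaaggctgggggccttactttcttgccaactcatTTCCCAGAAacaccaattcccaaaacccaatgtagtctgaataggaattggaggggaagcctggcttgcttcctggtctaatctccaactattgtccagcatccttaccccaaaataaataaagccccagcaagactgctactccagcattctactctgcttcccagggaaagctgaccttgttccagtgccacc
The match began 93 bases before the start in Csn2, 100 before it in Csn1s1 and 145 before it in Glycam1, and 20 bases after it in Csn1s2a. A match is a description of the letters and no evidence of binding.

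Genes of milk fat synthesis went both ways, 7 lower and 5 higher of 19 (median -0.04). Fabp3, the heart-type fatty acid binding protein that is abundant in lactating gland, stood at 6.12, 6.13 and 6.14 in the D-ME-iPSC arrays, against 11.55 and 9.22 in the ME arrays (difference -4.25, SE 0.51, adjusted p = 0.00018). Thrsp, a lipogenic factor also called Spot14, stood at 6.25, 6.01 and 6.03 in the D-ME-iPSC arrays, against 10.84 and 9.14 in the ME arrays (-3.89). Lpin1, a phosphatidate phosphatase, stood at 6.80, 6.76 and 6.66 in the D-ME-iPSC arrays, against 10.39 and 10.05 in the ME arrays (difference -3.48, SE 0.13, adjusted p = 2.93e-07), with all 25 probe sets lower. Olah, the thioesterase that releases the medium-chain fatty acids of milk, stood at 5.09, 5.32 and 4.91 in the D-ME-iPSC arrays, against 8.86 and 7.32 in the ME arrays (-2.98). ME replicate 2 was above ME replicate 3 for Fabp3, Thrsp and Olah, and both were above every D-ME-iPSC array. Higher members were Scd2, a desaturase (8.91, 8.98 and 9.02 in D-ME-iPSC and 6.62 and 7.21 in ME, 2.06), Acaca, acetyl-CoA carboxylase (1.18), Dgat1 (0.75), Elovl1 (0.72) and Acly (0.69). Fasn, fatty acid synthase, differed by 0.01 (-0.55 to 0.56), with 8.72, 8.77 and 8.81 in D-ME-iPSC and 9.30 and 8.21 in ME. Transport genes of lactation were 7 lower and 3 higher of 18, among them the amino acid carrier Slc6a14 (-1.90), carbonic anhydrase Car2 (-1.25), the folate receptor Folr1 (-1.06) and the glucose carrier Slc2a1 (-0.90) on the lower side and the xenobiotic and riboflavin pump Abcg2 (1.14) on the higher side. The Folr1 difference was -0.63 without ME replicate 2, and the brightest probe set of Dgat1 differed by -0.05.

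Luminal progenitor genes were likewise divided, with 5 higher and 5 lower of 13 (median -0.21). Beside Aldh1a3, the higher members were Itga2, an integrin of luminal progenitors (11.33, 11.39 and 11.42 in the D-ME-iPSC arrays, against 8.96 and 9.22 in the ME arrays, 2.29), Ltf, lactoferrin (1.30), Itgb3, the integrin CD61 (0.74), and the transcription factor Foxc1 (0.49). Beside Elf5, the lower members were the lipopolysaccharide-binding protein gene Lbp (-1.80), the epithelial ETS factor Ehf (9.43, 9.58 and 9.61 in D-ME-iPSC and 11.01 and 11.06 in ME, -1.50), the transcription factor Sox9 (-0.57) and the vitamin D hydroxylase Cyp24a1 (-0.42). The receptor gene Kit differed by -0.26 (-0.48 to -0.03). Among 12 hormone-sensing luminal genes, 4 were lower and 1 was higher (41.7% called, near the 38.7% of all genes). Gata3, a transcription factor of luminal identity, stood at 9.19, 9.36 and 9.26 in the D-ME-iPSC arrays, against 10.21 and 9.93 in the ME arrays (-0.80) and the coactivator Cited1 at 7.87, 7.73 and 7.60 in D-ME-iPSC and 8.32 and 9.41 in ME (-1.13). Esr1, the oestrogen receptor, differed by -0.46 (adjusted p = 0.0242) and only 2 of its 10 probe sets lay lower on every D-ME-iPSC array. Its call was lost without ME replicate 3 (-0.26) and without D-ME-iPSC replicate 2 or 3. Prom1, prominin, was the higher member (1.12). The Cited1 difference was -0.59 without ME replicate 3, the Cyp24a1 call was lost without ME replicate 2 (-0.24) and without D-ME-iPSC replicate 2 or 3, and the brightest probe set of Foxc1 differed by -0.11.

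Basal genes were 8 higher and 3 lower in D-ME-iPSC of 18 (median 0.38). Krt5, the basal keratin, stood at 12.21, 12.12 and 12.19 in the D-ME-iPSC arrays, against 9.94 and 11.24 in the ME arrays (difference 1.58, SE 0.30, adjusted p = 0.0025), and Krt17 at 10.92, 10.88 and 10.93 in the D-ME-iPSC arrays, against 8.73 and 10.21 in the ME arrays (1.44). Krt14, the partner of keratin 5, differed by 0.95. Jag1, a Notch ligand, differed by 1.56 and Itgb4, an integrin of hemidesmosomes, by 1.26. ME replicate 3 was above ME replicate 2 for 17 of the 18 genes. D-ME-iPSC minus ME replicate 2 had a list median of 0.53 and D-ME-iPSC minus ME replicate 3 one of 0.04, and the median was 0.16 after quantile normalization. In single genes, the difference for Krt5 was 0.94 without ME replicate 2. Trp63, the transcription factor of basal cells, stood at 9.79, 9.86 and 9.95 in D-ME-iPSC and 9.16 and 9.99 in ME, with overlapping arrays (0.30, -0.15 to 0.74). The lower members were Procr, a receptor of basal stem cells (9.52, 9.58 and 9.66 in the D-ME-iPSC arrays, against 11.09 and 12.13 in the ME arrays, -2.03), Irx4 (-0.77) and Vcan (-0.54). Krt17 differed by 0.70 without ME replicate 2 and by 2.17 without ME replicate 3, and Irx4 by -0.48 without ME replicate 3. The Vcan call was lost without ME replicate 3 (-0.18) and without any array of the other groups, and was -0.91 without ME replicate 2.

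Contractile genes of myoepithelial cells were 7 higher and 2 lower of 16 (median 0.53). Myl9, a myosin regulatory light chain, stood at 11.20, 11.16 and 11.32 in the D-ME-iPSC arrays, against 8.58 and 10.23 in the ME arrays (1.83), Tpm1, a tropomyosin, at 11.74, 11.71 and 11.70 in the D-ME-iPSC arrays, against 9.76 and 10.65 in the ME arrays (1.51), and Tagln, transgelin, at 10.94, 10.96 and 10.97 in the D-ME-iPSC arrays, against 8.72 and 10.26 in the ME arrays (1.47). For each of these genes ME replicate 3 lay between D-ME-iPSC and ME replicate 2. Cald1, caldesmon, differed by 1.24, Tpm2 by 1.07 and Cnn1, calponin, by 0.76. Acta2, the α-smooth muscle actin, was at 12.86, 12.81 and 12.80 in D-ME-iPSC and 11.66 and 12.75 in ME, and did not pass the test (0.07 to 1.16). Myh11, the smooth muscle myosin heavy chain (0.07, -0.30 to 0.44), and Oxtr, the oxytocin receptor (-0.47, -0.93 to 0.00), did not pass either. Mylk, myosin light chain kinase (-0.62), and Synpo2 (-1.02) were lower. Over the list, D-ME-iPSC minus ME replicate 2 had a median of 0.99 and D-ME-iPSC minus ME replicate 3 a median of 0.12. Without ME replicate 2, Myl9 differed by 1.00, Tagln by 0.70, Tpm2 by 0.66 and Cnn1 by 0.46, and Tagln differed by 2.24 without ME replicate 3.

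Genes of stratified and injured epithelium were among the highest differences. Dsg3, a desmosomal cadherin of stratified epithelium, stood at 10.28, 10.41 and 10.42 in the D-ME-iPSC arrays, against 5.57 and 5.67 in the ME arrays (difference 4.75, SE 0.12, adjusted p = 3.51e-08), with all 17 probe sets higher. Krt6a, a keratin induced in wounded epidermis, stood at 10.13, 10.18 and 10.29 in the D-ME-iPSC arrays, against 6.44 and 6.26 in the ME arrays (difference 3.85, SE 0.10, adjusted p = 3.05e-08). D-TF-iPSC averaged 6.38 for Dsg3, above ME by 0.76 (limma adjusted p = 0.000869), and 6.46 for Krt6a, near the ME values. Desmosome and hemidesmosome genes were 8 higher and 1 lower of 16 (median 0.58), and 7 higher and 2 lower after quantile normalization. The list median was 0.91 against ME replicate 2 and 0.25 against ME replicate 3. Higher members included Dsc3 (8.01, 8.05 and 7.97 in D-ME-iPSC and 5.62 and 6.63 in ME, 1.88), the plakophilin Pkp1 (9.59, 9.76 and 9.73 in D-ME-iPSC and 7.66 and 8.06 in ME, 1.83) and plakoglobin, Jup (0.97). Ppl, periplakin, was lower (8.33, 8.52 and 8.56 in D-ME-iPSC and 10.02 and 9.55 in ME, -1.31). Keratinocyte genes were 10 higher and 4 lower of 23 (median 0.11). Krtdap (2.32), Dmkn (2.02) and Krt16 (1.67) were higher, while Krt15 (6.47, 6.19 and 6.08 in D-ME-iPSC and 7.26 and 8.87 in ME, -1.81), Calml3 (-1.05), the crosslinking enzyme Tgm1 (-0.77) and Sbsn (-0.72) were lower. Krt6a and Krt6b are near-identical copies, and cross-hybridisation between them was not tested. Krt15 differed by -1.01 without ME replicate 3 and Tgm1 by -0.39 without ME replicate 2.

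Tight junction genes were 5 higher and 4 lower of 19, and 5 higher and 9 lower after quantile normalization. The share called was 47.4%, not far from the 38.7% of all genes. Cldn6 (8.34, 8.47 and 8.27 in D-ME-iPSC and 7.01 and 7.00 in ME, 1.36) and Cldn12 (1.17) were higher together with Cldn4 and Cldn7 and with the adhesion molecule F11r (0.67). Cldn8 (5.77, 5.77 and 5.86 in D-ME-iPSC and 6.66 and 7.14 in ME, -1.10), Cldn10 (-1.01), Ocln, occludin (-0.47), and Tjp3 (-0.41) were lower. Cldn3 (-0.10, -0.43 to 0.23) and Cldn1 (-0.34, -0.64 to -0.03) did not pass the test. The Ocln call was lost without ME replicate 2 (-0.34), where F11r differed by 0.40 and Cldn10 by -1.52. Without ME replicate 3, Cldn10 differed by -0.49.

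**Figure D2:**
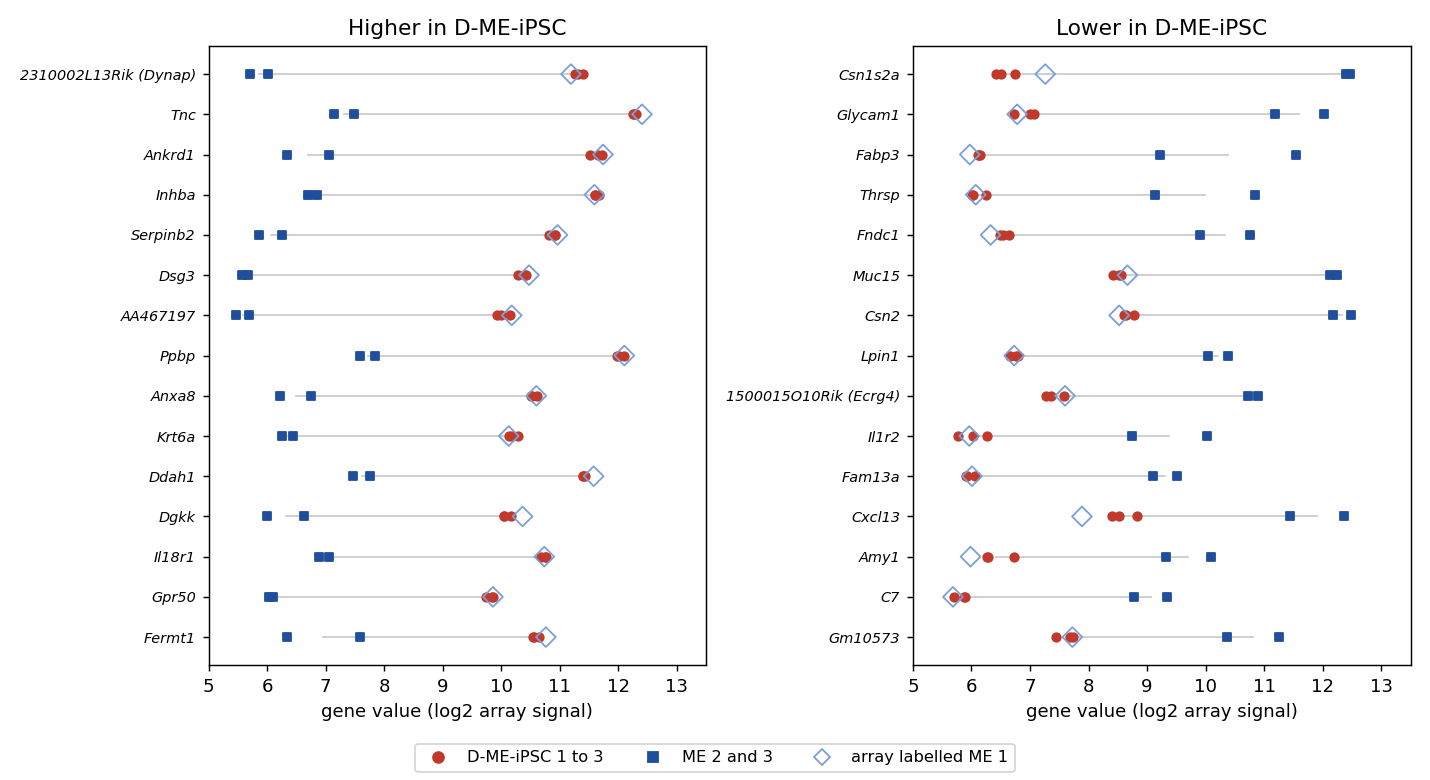
Gene values (log2 array signal) of the 15 called genes with the largest differences each way whose D-ME-iPSC arrays (circles) and ME 2 and 3 arrays (squares) did not overlap; grey lines join the group means and open diamonds are the array labelled ME replicate 1. The diamond lies nearer to the D-ME-iPSC mean in all 30 genes drawn.

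The 15 genes with the largest positive differences lay between 3.63 and 5.46 log2 units above ME, and 165 of their 167 probe sets were higher on every D-ME-iPSC array. These genes were chosen for their difference, so their sizes are a description. The largest was 2310002L13Rik, now named Dynap, a gene of a dynactin-associated protein, at 11.26, 11.40 and 11.31 in the D-ME-iPSC arrays, against 6.01 and 5.71 in the ME arrays (difference 5.46, SE 0.13, adjusted p = 3.05e-08). Tnc, tenascin C, an extracellular matrix protein of wounds and developing tissue, stood at 12.30, 12.27 and 12.25 in the D-ME-iPSC arrays, against 7.14 and 7.48 in the ME arrays (difference 4.96, SE 0.11, adjusted p = 2.25e-08). Ankrd1, a target of the YAP and TAZ coactivators, stood at 11.51, 11.66 and 11.71 in the D-ME-iPSC arrays, against 6.33 and 7.05 in the ME arrays (4.93). Inhba, which encodes the subunit of activin A, stood at 11.66, 11.60 and 11.60 in the D-ME-iPSC arrays, against 6.70 and 6.86 in the ME arrays (difference 4.84, SE 0.09, adjusted p = 1.68e-08). The 3 D-ME-iPSC arrays were within 0.22 of each other in all 15 genes, and the smallest gap to the nearest ME array was 2.96. Ppbp, a platelet chemokine, was at 12.01, 12.10 and 11.98 in D-ME-iPSC and 7.84 and 7.59 in ME. Anxa8, an annexin, was at 10.51, 10.52 and 10.62 in D-ME-iPSC and 6.75 and 6.22 in ME. The kindlin gene Fermt1, which acts on integrins, was at 10.65, 10.56 and 10.54 in D-ME-iPSC and 6.33 and 7.58 in ME. The rest were AA467197 (4.44), Ddah1, an enzyme that clears an inhibitor of nitric oxide synthesis (3.79), the diacylglycerol kinase Dgkk (3.77), the interleukin-18 receptor Il18r1 (3.76), the orphan receptor Gpr50 (3.74), and Serpinb2, Dsg3 and Krt6a. In 8 of the 15 genes, Tnc, Inhba, Ankrd1, Ddah1, Dynap, Dgkk, AA467197 and Anxa8, the D-TF-iPSC mean was also nearer to D-ME-iPSC than to ME. Over all genes, D-TF-iPSC arrays correlated at 0.954 to 0.960 with D-ME-iPSC and at 0.905 to 0.929 with ME. Such nearness is therefore a description, and its share over all genes was not counted.

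The 15 with the largest negative differences lay between 3.19 and 5.87 log2 units below ME, with 146 of 147 probe sets lower on every D-ME-iPSC array. Beside the milk and lipid genes, they were Fndc1 (6.65, 6.48 and 6.54 in D-ME-iPSC and 9.91 and 10.76 in ME), a fibronectin type III domain gene, 1500015O10Rik, now named Ecrg4 (7.36, 7.27 and 7.58 in D-ME-iPSC and 10.90 and 10.73 in ME), Il1r2, a decoy receptor of interleukin-1 (6.27, 5.77 and 6.02 in D-ME-iPSC and 8.74 and 10.02 in ME), Fam13a (-3.35), the B cell chemokine Cxcl13 (8.40, 8.82 and 8.52 in D-ME-iPSC and 11.44 and 12.37 in ME), the amylase gene Amy1 (-3.28), the complement component C7 (-3.24) and Gm10573 (-3.19). The D-TF-iPSC mean was nearer to D-ME-iPSC than to ME in 14 of these 15 genes, the exception being Fndc1 (D-TF-iPSC mean 9.31). These genes too were chosen for their difference, and the share over all genes was not counted. Amylase genes are a family of close copies, and cross-hybridisation was not tested.

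**Figure D3:**
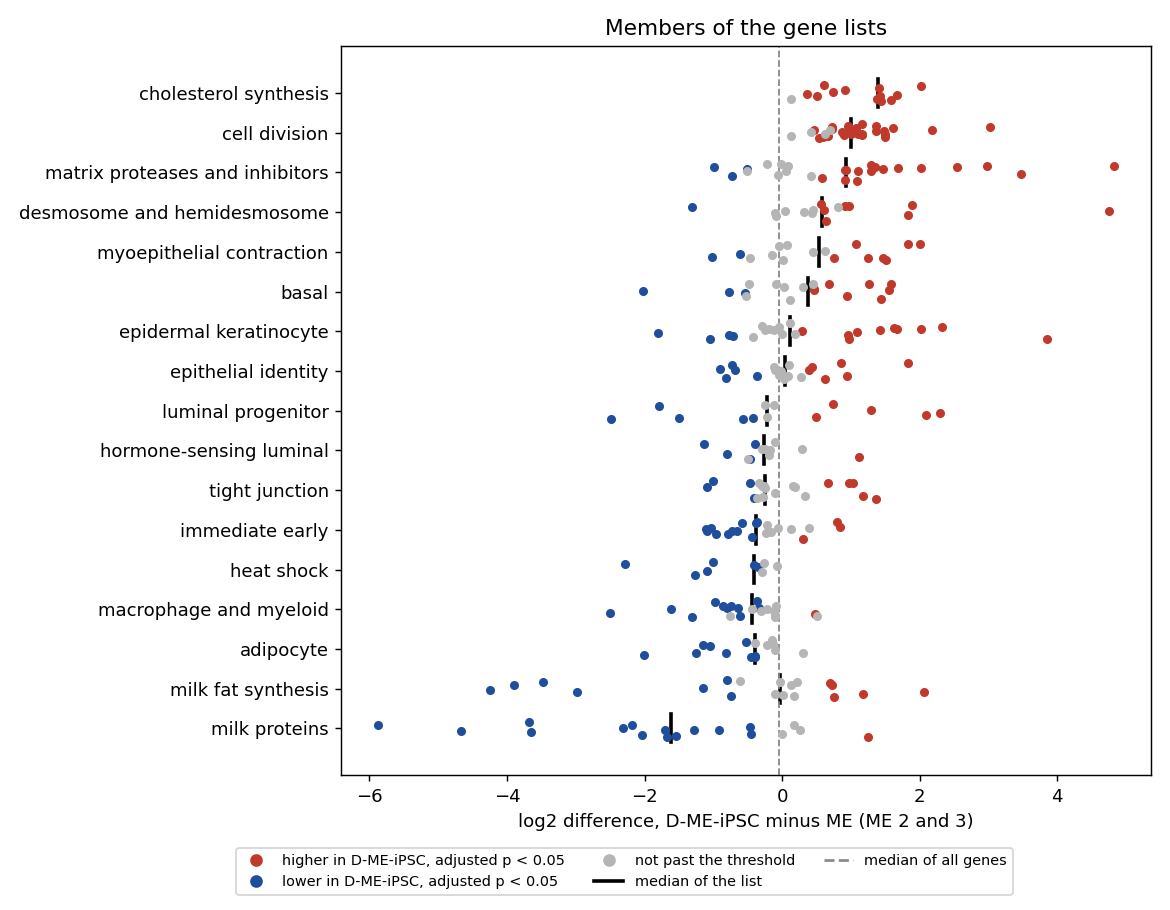
Log2 differences (D-ME-iPSC minus ME) of the members of 17 gene lists; each point is a gene, coloured by whether it passed an adjusted p of 0.05, black bars are list medians and the dashed line is the median of all genes (-0.05). Cholesterol synthesis, cell division and matrix protease genes lie mostly to the right, milk protein genes to the left, and luminal progenitor and milk fat genes on both sides.

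Cell division genes were higher in D-ME-iPSC as a list: 25 of 29 were higher, 0 were lower and 4 did not pass the test (median 1.00 against -0.05 over all genes). Rrm2, a subunit of the ribonucleotide reductase that supplies DNA precursors, stood at 10.40, 10.31 and 10.29 in the D-ME-iPSC arrays, against 6.68 and 7.93 in the ME arrays (difference 3.03, SE 0.28, adjusted p = 3.79e-05). Plk1, a mitotic kinase, stood at 9.04, 9.03 and 9.15 in the D-ME-iPSC arrays, against 6.33 and 7.44 in the ME arrays (difference 2.19, SE 0.26, adjusted p = 0.000182). Mcm3 and Mcm7, subunits of the replicative helicase, stood at 9.08, 9.28 and 9.40 in D-ME-iPSC and 7.18 and 8.10 in ME, and at 9.24, 9.38 and 9.39 in D-ME-iPSC and 7.45 and 8.22 in ME. The genes of DNA replication (Mcm2, 1.16, and Mcm4, 1.36), of S phase entry (Ccne1, 1.36) and of mitosis (Bub1, 1.49, Aurka, 1.49, and Birc5, 1.16) were all higher. Mki67, the gene of the Ki-67 antigen of cycling cells, was not: it stood at 9.90, 9.93 and 9.97 in D-ME-iPSC and 9.27 and 10.32 in ME (-0.40 to 0.67). Top2a, topoisomerase II, stood at 10.85, 10.80 and 10.78 in D-ME-iPSC and 9.45 and 10.78 in ME and did not pass (0.04 to 1.35). Bub1 differed by 0.75 and Birc5 by 0.68 without ME replicate 2, and the brightest probe set of Ccne1 differed by -0.42.

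The ME arrays differed from each other in these genes. ME replicate 3 was above ME replicate 2 in 27 of the 29, by a median of 0.92. D-ME-iPSC minus ME replicate 2 had a median of 1.39, and D-ME-iPSC minus ME replicate 3 a median of 0.49. The count of higher members was 22 without ME replicate 2 and 29 without ME replicate 3, and the Mki67 difference was -0.39 without ME replicate 2. The methods' t-test with adjustment called 1 member. Genes that hold back the cycle were 4 higher and 7 lower of 15. ME replicate 3 was above ME replicate 2 for 11 of the 15. The list median was -0.022 against ME replicate 2 and -0.555 against ME replicate 3. Sesn1 (7.57, 7.77 and 7.50 in D-ME-iPSC and 9.78 and 10.37 in ME, -2.46) and Btg2 (9.41, 9.57 and 9.43 in D-ME-iPSC and 11.77 and 11.70 in ME, -2.27) were lower, as were Trp53inp1 (-1.14) and Cdkn1b, the inhibitor p27 (-0.96, and -0.63 without ME replicate 3). The higher members were the p53 targets Zmat3 (0.77, and 0.42 without ME replicate 2) and Ccng1 (0.43) and the cyclin-dependent kinase inhibitors Cdkn2b (0.74) and Cdkn2c (0.62). The Cdkn2c call was lost on leaving out any array but D-ME-iPSC replicate 2 or ME replicate 3, and its difference was 0.24 without ME replicate 2 and 0.99 without ME replicate 3. Sesn1, Btg2 and Trp53inp1 are p53 targets too, so targets of p53 lay on both sides. Cdkn1a, the inhibitor p21, differed by -0.20 (-0.61 to 0.21).

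Cholesterol synthesis genes were higher in 13 of 14, with none lower (median 1.39). Msmo1, listed as Sc4mol, a sterol methyl oxidase, stood at 9.96, 10.01 and 10.002 in the D-ME-iPSC arrays, against 7.54 and 8.42 in the ME arrays (difference 2.01, SE 0.21, adjusted p = 8.22e-05). Idi1, isopentenyl diphosphate isomerase, stood at 9.49, 9.54 and 9.47 in the D-ME-iPSC arrays, against 7.71 and 7.94 in the ME arrays (difference 1.67, SE 0.10, adjusted p = 3.01e-06). Fdps, farnesyl diphosphate synthase, stood at 9.73, 9.82 and 9.98 in the D-ME-iPSC arrays, against 8.12 and 8.39 in the ME arrays (1.59), and Sqle, squalene epoxidase, at 10.28, 10.30 and 10.30 in the D-ME-iPSC arrays, against 8.72 and 9.01 in the ME arrays (1.43). The D-ME-iPSC arrays lay above both ME arrays in the 13 genes, as they did in 29.5% of all genes. These were the called members, so that order is no separate support. Hmgcs1, the synthase that feeds the pathway, differed by 1.42, Cyp51 by 1.40, Lss by 1.37, Nsdhl by 1.41 and Dhcr7 by 0.92. Srebf2, the transcription factor that drives the pathway, differed by 0.51 and Insig1, which restrains it, by 0.74. Mvd differed by 0.13 (-0.22 to 0.47). The count was 14 without ME replicate 2, 13 without ME replicate 3 and 11 after quantile normalization. D-TF-iPSC means were nearer to D-ME-iPSC than to ME in 9 of the 14 genes, a description whose share over all genes was not counted. Hmgcs1 differed by 0.94 and Srebf2 by 0.30 without ME replicate 2, and the brightest probe set of Dhcr7 differed by -0.18.

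**Figure D4:**
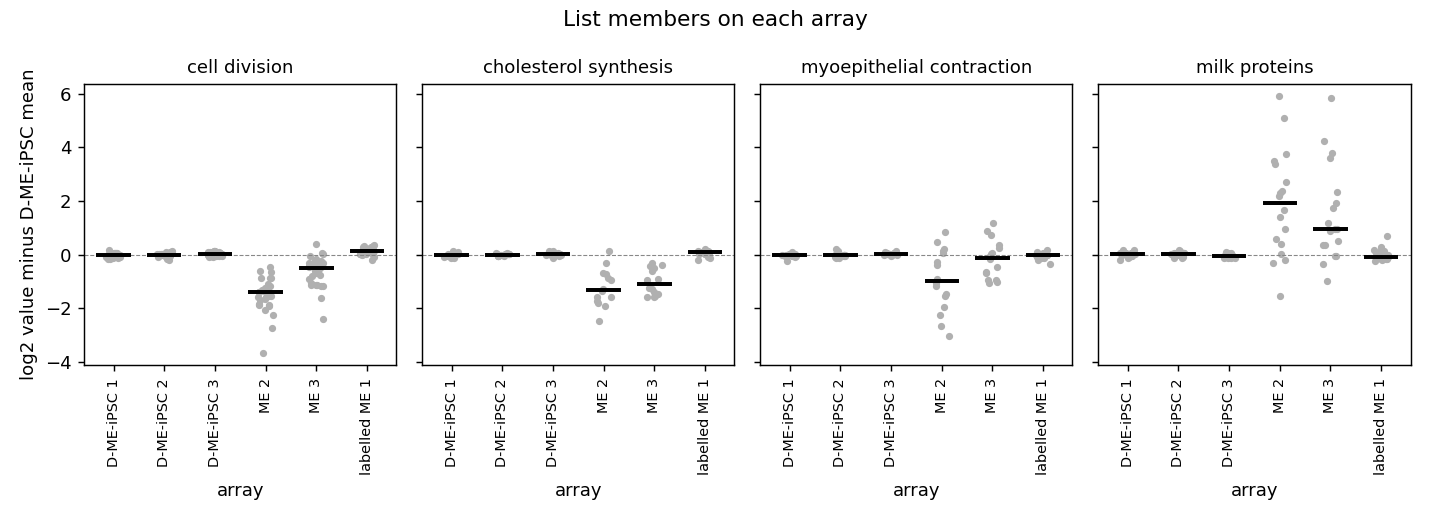
Log2 value of each member minus its D-ME-iPSC mean on each array, for 4 gene lists; grey points are genes and black bars are medians over the list. Cell division and contractile genes of ME replicate 3 lie between D-ME-iPSC and ME replicate 2, cholesterol genes are low on both ME arrays, milk genes are high on both, and the array labelled ME replicate 1 lies at the D-ME-iPSC level in every panel.

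The start regions of Hmgcs1 and Cdk1 are shown as members of the cholesterol and cell division lists, which share the CCAAT box. CCAAT, read on either strand (ATTGG is its reverse complement), lay in a start region of 11 of 11 cholesterol genes and 20 of 24 cell division genes with a start in the table, against 41.1% of all genes (37.4% of start regions). TTTGAA, the core of the cell cycle homology region, lay in 11 of the 24 cell division genes, against 20.2% of all genes (17.9% of start regions). TCACNCCAC, a sterol regulatory element, lay in 1 of the 11 cholesterol genes, Hmgcs1, against 1.44% of all genes (1.24% of start regions). The Cdk1 gene is listed on the array as Cdc2a (8.45, 8.60 and 8.48 in D-ME-iPSC and 6.92 and 7.91 in ME, 1.10, and 0.60 without ME replicate 2). Capitals mark CCAAT and TCACNCCAC in Hmgcs1, and CCAAT and TTTGAA in Cdk1.
Hmgcs1, chr13:119690101-119690400, plus strand: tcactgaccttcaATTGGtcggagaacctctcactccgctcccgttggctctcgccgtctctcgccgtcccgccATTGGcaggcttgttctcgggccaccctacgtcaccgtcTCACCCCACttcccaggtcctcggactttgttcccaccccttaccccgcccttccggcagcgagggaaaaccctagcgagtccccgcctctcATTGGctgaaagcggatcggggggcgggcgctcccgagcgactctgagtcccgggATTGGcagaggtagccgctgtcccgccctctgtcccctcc
Cdk1, chr10:69352863-69353162, minus strand: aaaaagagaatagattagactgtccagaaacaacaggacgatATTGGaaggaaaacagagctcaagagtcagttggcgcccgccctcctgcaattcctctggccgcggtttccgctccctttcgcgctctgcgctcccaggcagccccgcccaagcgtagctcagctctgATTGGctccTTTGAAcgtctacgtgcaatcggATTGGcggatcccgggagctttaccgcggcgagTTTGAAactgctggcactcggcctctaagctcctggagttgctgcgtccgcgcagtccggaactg
CCAAT lay 4 times in the Hmgcs1 window and 3 times in that of Cdk1, which also held TTTGAA 2 times.

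Matrix proteases and their inhibitors were 16 higher and 3 lower of 26 (median 0.93). Serpinb2, the plasminogen activator inhibitor 2, stood at 10.81, 10.91 and 10.91 in the D-ME-iPSC arrays, against 5.87 and 6.25 in the ME arrays (difference 4.82, SE 0.15, adjusted p = 8.8e-08). Timp1, an inhibitor of metalloproteases, stood at 11.61, 11.57 and 11.58 in the D-ME-iPSC arrays, against 7.87 and 8.35 in the ME arrays (difference 3.48, SE 0.13, adjusted p = 3.2e-07), and Mmp9, gelatinase B, at 9.28, 9.34 and 9.38 in the D-ME-iPSC arrays, against 6.41 and 6.30 in the ME arrays (difference 2.98, SE 0.11, adjusted p = 3.05e-07). Activators of plasminogen were higher as well, Plau, urokinase, by 2.01 and its receptor Plaur by 1.69. The collagenase Mmp13 differed by 1.36, the membrane protease Mmp14 by 0.93 and Timp3 by 1.29. Mmp2, gelatinase A (9.54, 9.40 and 9.42 in D-ME-iPSC and 10.13 and 10.76 in ME, -0.99), Timp2 (-0.51) and Adamts15 (-0.73) were lower. D-TF-iPSC averaged 11.61 for Timp1, close to its D-ME-iPSC mean of 11.59, and 7.53 for Serpinb2. The count of higher members was 16 without ME replicate 2 and 20 without ME replicate 3, and quantile normalization gave 16 higher and 5 lower. The Adamts15 difference was -0.44 without ME replicate 3.

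The start region of Serpinb2 is shown as that of the list's largest difference. TGANTCA, the site of AP-1 factors and a palindrome when N is left open, lay in a start region of 5 of 17 genes of the list (Mmp3, Mmp10, Mmp13, Plaur and Serpinb2), against 8.97% of all genes (7.81% of start regions). Its match in Serpinb2, in capitals, began 94 bases before the start.
Serpinb2, chr1:107511173-107511472, plus strand: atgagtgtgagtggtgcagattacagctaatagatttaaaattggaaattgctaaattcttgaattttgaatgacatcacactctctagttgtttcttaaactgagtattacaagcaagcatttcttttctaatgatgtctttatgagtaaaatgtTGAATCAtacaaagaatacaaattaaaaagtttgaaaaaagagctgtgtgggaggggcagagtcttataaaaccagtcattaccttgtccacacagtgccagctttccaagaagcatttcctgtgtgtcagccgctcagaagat

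Structural matrix genes were 14 higher and 8 lower of 31, and 11 higher and 10 lower after quantile normalization. ME replicate 3 was above ME replicate 2 for 29 of the 31. The list median was 0.43 against ME replicate 2 and 0.11 against ME replicate 3. Tnc led the higher ones, followed by Col12a1 (10.69, 10.73 and 10.70 in D-ME-iPSC and 7.86 and 8.58 in ME, 2.49), the thrombospondin Thbs2 (1.68) and Col5a2 (0.99), and fibronectin, Fn1, differed by 0.96. The lower members included the small leucine-rich proteoglycans Ogn (7.95, 8.12 and 7.96 in the D-ME-iPSC arrays, against 10.72 and 10.71 in the ME arrays, -2.71), Lum (-1.73) and Dcn (11.28, 11.33 and 11.27 in D-ME-iPSC and 12.40 and 12.66 in ME, -1.24), and the collagen Col14a1 (-2.40). Col1a1 (0.45, 0.08 to 0.83) and Col3a1 (0.04, -0.38 to 0.45) did not pass the test, and the Col3a1 difference was -0.35 without ME replicate 2. Col5a2 differed by 0.61 and Fn1 by 0.52 without ME replicate 2.

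Markers of other cell types moved in different directions. Of 22 fibroblast and mesenchyme genes, 10 were higher and 2 lower (median 0.23), against 9 and 4 after quantile normalization (median 0.05). The cadherins Cdh2 (9.45, 9.60 and 9.47 in D-ME-iPSC and 6.10 and 7.17 in ME, 2.87) and Cdh11 (2.02), the growth factor receptor Pdgfrb (2.01) and S100a4 (1.82) were higher, Vim differed by 0.52, and Dpt, dermatopontin, was lower (8.60, 8.56 and 8.67 in the D-ME-iPSC arrays, against 11.49 and 12.03 in the ME arrays, -3.15). Pdgfra differed by -0.31 (-0.59 to -0.03). Endothelial genes were 8 higher and 2 lower of 16, with Emcn (10.15, 10.11 and 10.15 in D-ME-iPSC and 8.69 and 8.36 in ME, 1.61), Pecam1 (8.05, 8.22 and 8.12 in D-ME-iPSC and 6.82 and 6.89 in ME, 1.27) and Cdh5 (1.26) higher and Cd34 (8.82, 8.78 and 8.89 in D-ME-iPSC and 10.16 and 10.62 in ME, -1.56) and Ramp2 (-1.41) lower. The D-TF-iPSC mean was nearer to D-ME-iPSC than to ME in 14 of the 16 endothelial genes. The share over all genes was not counted, so this is not read as a trait of the list. Macrophage and myeloid genes were 11 lower and 1 higher of 21, adipocyte genes 9 lower and 0 higher of 15, lymphocyte genes 5 lower and 0 higher of 16 (3 lower after quantile normalization), and skeletal muscle genes 8 lower and 1 higher of 16. Dim genes in general leaned lower. Of 2042 genes at a mean signal of 5.82 to 6.32, 318 were lower and 79 higher. At 6.32 to 6.75 these counts were 362 and 197, and at 6.75 to 7.15 they were 347 and 326. After quantile normalization, 11 myeloid, 9 adipocyte and 7 skeletal muscle genes were lower. The part of signal level in these counts was not tested. Of the lymphocyte genes 31.25% were called, against 38.7% of all genes. Cd68, a lysosomal protein of macrophages, stood at 7.88, 8.10 and 8.12 in the D-ME-iPSC arrays, against 11.04 and 10.03 in the ME arrays (-2.50), the mannose receptor gene Mrc1 at 5.93, 5.90 and 6.02 in D-ME-iPSC and 7.43 and 7.69 in ME (-1.61) and Cd74, the invariant chain, at 6.03, 5.94 and 5.86 in D-ME-iPSC and 7.78 and 6.74 in ME (-1.32). Csf1r, the receptor that defines macrophages, was the higher one (6.65, 6.68 and 6.82 in D-ME-iPSC and 6.22 and 6.27 in ME, 0.47), though its brightest probe set differed by -0.13. C1qa (-0.11, -0.35 to 0.13) and the B and T cell genes Cd79a (-0.20, -0.59 to 0.18) and Cd3e (-0.30, -0.58 to -0.01) did not pass. Acsl1 (8.39, 8.34 and 8.41 in D-ME-iPSC and 11.09 and 9.69 in ME, -2.01), Car3 (-1.25), Fabp4 (8.17, 8.43 and 8.23 in D-ME-iPSC and 9.48 and 9.38 in ME, -1.15) and Cebpa (-1.04) were the lower adipocyte genes with the largest differences, while Adipoq, adiponectin, did not pass (4.77, 4.75 and 4.61 in D-ME-iPSC and 5.36 and 4.85 in ME). Mean list values were 6.72, 6.71 and 6.73 in D-ME-iPSC and 7.45 and 7.13 in ME for the myeloid list, and 6.83, 6.81 and 6.80 in D-ME-iPSC and 7.56 and 7.23 in ME for the adipocyte list. On the D-TF-iPSC arrays these means were 7.46, 7.52 and 7.59 for the myeloid list, no lower than in ME. For the adipocyte list they were 6.845, 6.825 and 6.877. The D-TF-iPSC mean was nearer to D-ME-iPSC than to ME in 7 of 21 myeloid and 12 of 15 adipocyte genes. What part myeloid, fat and other such cells of the gland had in the differences of the other lists was not tested. Without ME replicate 2, Acsl1 differed by -1.31, Cd74 by -0.80 and Cebpa by -0.69.

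Genes of the pluripotent state were 0 higher and 7 lower of 19 in D-ME-iPSC, and 0 higher and 3 lower after quantile normalization. The share called was 36.8%, near the 38.7% of all genes. Pou5f1 (Oct4) stood at 5.73, 5.57 and 5.50 in D-ME-iPSC and 5.89 and 5.96 in ME (adjusted p = 0.0441), a call lost without either ME array, without D-ME-iPSC replicate 2 or 3, without D-TF-iPSC replicate 1 or 2 and after quantile normalization. Nanog (-0.50 to 0.21), Zfp42 (-0.20 to 0.61) and Sox2 (-0.25 to 0.35) did not pass. Myc stood at 10.57, 10.54 and 10.57 in D-ME-iPSC and 11.24 and 11.18 in ME (-0.65), and Klf4 at 8.82, 9.03 and 9.00 in D-ME-iPSC and 9.18 and 9.66 in ME (adjusted p = 0.0247). These probe sets read the endogenous and any vector transcripts that they match, and the 2 sources were not told apart. The Klf4 call was lost without ME replicate 3 (-0.23) and without D-ME-iPSC replicate 1 or 3, and was -0.71 without ME replicate 2.

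Signalling genes contained several large differences. Of 22 genes of TGF-β and BMP signalling, 11 were higher and 4 lower. Beside Inhba, the higher members were the inhibitor of DNA binding Id3 (8.52, 8.82 and 8.68 in D-ME-iPSC and 6.64 and 7.23 in ME, 1.74) and the latent TGF-β binding proteins Ltbp2 (1.52) and Ltbp1 (10.46, 10.46 and 10.46 in D-ME-iPSC and 9.03 and 8.99 in ME, 1.45). The ligand gene Tgfb1 differed by 1.02. The co-receptor Tgfbr3 (8.57, 8.57 and 8.56 in the D-ME-iPSC arrays, against 10.59 and 10.94 in the ME arrays, -2.19), Tgfbi (-0.98) and the ligand Bmp4 (-0.82) were lower. Among 11 genes of the EGF family, 4 were higher and 2 lower, against 4 and 3 after quantile normalization, where the median was -0.01 and not 0.23. The ligands Ereg (8.83, 9.04 and 9.02 in the D-ME-iPSC arrays, against 6.13 and 6.46 in the ME arrays, 2.67), Hbegf (11.05, 11.05 and 11.12 in D-ME-iPSC and 9.68 and 9.28 in ME, 1.60), Epgn (1.36) and Btc (0.66) were higher. The receptors Erbb4, which mediates alveolar differentiation (6.39, 6.42 and 6.29 in the D-ME-iPSC arrays, against 8.81 and 8.09 in the ME arrays, -2.08), and Erbb3 (-0.80) were lower, while Egfr (0.12, -0.11 to 0.35) and Erbb2 (0.27, 0.05 to 0.50) did not pass. Of 25 Wnt and Notch genes, 12 were higher and 1 lower. The Notch ligand Jag1, the receptor Notch2 (1.06) and the target Hes1 (9.64, 9.80 and 9.79 in D-ME-iPSC and 8.54 and 8.62 in ME, 1.16) were higher with the Wnt antagonist Dkk3 (1.07), and Wif1, a secreted Wnt inhibitor, was lower (6.04, 5.98 and 5.97 in D-ME-iPSC and 7.72 and 7.83 in ME, -1.78).

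Cytokine genes were 5 higher and 6 lower of 19. Il24 (9.48, 9.71 and 9.65 in D-ME-iPSC and 6.88 and 6.89 in ME, 2.73), Il1a (7.43, 7.33 and 7.60 in D-ME-iPSC and 5.60 and 5.63 in ME, 1.84) and Tnf (1.59) were higher. The neutrophil chemokine Cxcl2 (9.07, 8.96 and 8.93 in the D-ME-iPSC arrays, against 11.80 and 12.38 in the ME arrays, -3.10), Cxcl1 (-1.48), the alarmin Il33 (8.00, 7.98 and 8.11 in D-ME-iPSC and 9.85 and 10.96 in ME, -2.38) and Il6 (-1.35) were lower. Defence proteins secreted by mammary cells were 2 higher and 6 lower of 14. ME replicate 2 was above ME replicate 3 for 13 of the 14. The list median was -0.59 against ME replicate 2 and -0.07 against ME replicate 3. Saa3, a serum amyloid A protein, stood at 7.96, 7.97 and 8.14 in the D-ME-iPSC arrays, against 11.07 and 10.96 in the ME arrays (-2.99), Defb1, a defensin, at 6.71, 6.99 and 6.88 in D-ME-iPSC and 9.09 and 8.53 in ME (-1.95), and Pigr, the receptor that carries IgA into milk, at 6.27, 6.35 and 6.46 in D-ME-iPSC and 9.48 and 7.16 in ME (-1.96). The ME arrays were far apart for Pigr, and its difference was -0.80 without ME replicate 2 and -3.12 without ME replicate 3. Chil1, listed as Chi3l1 (11.55, 11.44 and 11.49 in D-ME-iPSC and 10.25 and 9.97 in ME, 1.38), and Slpi (0.81) were higher. Lcn2, lipocalin 2, differed by 0.01 (-0.33 to 0.35). Retinoid genes were 7 higher and 2 lower of 16, with Crabp1, a retinoic acid binding protein (11.40, 11.51 and 11.59 in D-ME-iPSC and 7.92 and 9.58 in ME, 2.75), Rdh10, a retinol dehydrogenase (11.54, 11.50 and 11.53 in D-ME-iPSC and 9.64 and 9.62 in ME, 1.89), and the receptor Rarb (1.28) higher beside Aldh1a3, and Aldh1a1 (7.05, 6.56 and 6.78 in D-ME-iPSC and 8.48 and 8.28 in ME, -1.58) and Rbp4 (-1.06) lower.

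Immediate early genes, which respond within minutes to stimuli that include tissue dissociation, were 11 lower and 3 higher of 20 (median -0.37), and heat shock genes 6 lower and 0 higher of 9 (median -0.41). Klf6 stood at 10.37, 10.36 and 10.21 in D-ME-iPSC and 11.44 and 11.38 in ME (-1.10), Atf3 at 10.30, 10.30 and 10.29 in D-ME-iPSC and 11.28 and 11.50 in ME (-1.09), Jun at 10.18, 10.41 and 10.16 in D-ME-iPSC and 11.23 and 11.21 in ME (-0.97) and Nr4a1 at 8.96, 9.09 and 9.02 in D-ME-iPSC and 9.59 and 10.53 in ME (-1.04, and -0.57 without ME replicate 3). Fos (-0.22, -0.42 to -0.01) did not pass, and Ier3 (0.80) was higher. Hspa1a, the inducible HSP70, stood at 10.49, 10.38 and 10.22 in the D-ME-iPSC arrays, against 12.36 and 12.93 in the ME arrays (difference -2.28, SE 0.18, adjusted p = 1.81e-05) on 1 probe set, where cross-hybridisation with the near-identical Hspa1b was not tested, and Dnajb1, its co-chaperone, at 7.85, 7.94 and 7.92 in D-ME-iPSC and 9.11 and 9.23 in ME (-1.27). The ME cells were freshly isolated and the D-ME-iPSC cells were cultured, so isolation and cell state cannot be told apart in these genes. Hypoxia genes were among the lower ones in the glycolysis list, Egln3 (7.88, 8.10 and 7.92 in the D-ME-iPSC arrays, against 10.80 and 10.66 in the ME arrays, -2.77), Ndrg1 (9.31, 9.33 and 9.41 in D-ME-iPSC and 11.40 and 11.32 in ME, -2.01) and Bnip3 (8.58, 8.63 and 8.31 in D-ME-iPSC and 9.99 and 10.02 in ME, -1.49), while the glycolytic enzyme genes Pkm, listed as Pkm2 (0.74), Eno1 (0.65) and Aldoa (0.44) were higher. Of 19 genes in that list, these 3 were the only higher ones and 8 were lower (median -0.04). The lower ones included the glycolytic enzyme gene Aldoc (-1.07), so enzyme genes lay on both sides.

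Further lists had smaller or mixed differences. Chromatin genes were 3 higher and 4 lower of 15, and 3 higher and 7 lower after quantile normalization. Uhrf1, which recruits the maintenance DNA methyltransferase (9.59, 9.42 and 9.63 in D-ME-iPSC and 7.91 and 8.62 in ME, 1.28), was higher, and the methylcytosine dioxygenases Tet2 (7.30, 7.23 and 7.32 in D-ME-iPSC and 8.50 and 9.08 in ME, -1.51) and Tet1 (6.67, 6.65 and 6.79 in D-ME-iPSC and 7.59 and 8.52 in ME, -1.35) and Jarid2 (-0.91) were lower. Imprinted genes were 7 higher and 4 lower of 16, against 3 and 5 after quantile normalization, with the non-coding RNA gene H19 higher (8.09, 8.02 and 7.91 in D-ME-iPSC and 6.75 and 6.87 in ME, 1.20) and Rian, on 1 probe set, lower (6.52, 6.54 and 6.43 in D-ME-iPSC and 8.24 and 7.66 in ME, -1.45). Interferon genes were 4 higher and 3 lower of 19, against 2 and 3 after quantile normalization, Ifi44 (9.67, 9.60 and 9.52 in D-ME-iPSC and 7.76 and 6.65 in ME, 2.39) and Isg15 (1.29) being higher and Rsad2 (6.49, 6.44 and 6.44 in D-ME-iPSC and 8.27 and 6.89 in ME, -1.12) lower. Of 9 oxidative stress genes, 3 were higher and 3 lower. The glutathione transferase Gsta4 (10.92, 10.96 and 10.89 in D-ME-iPSC and 7.93 and 9.14 in ME, 2.39) and Nqo1 (1.66) were higher and Hmox1 (-1.18) was lower. ME replicate 3 was above ME replicate 2 for all 9. The list median was 0.38 against ME replicate 2 and -0.35 against ME replicate 3, so its sign depended on the ME array. Amino acid and unfolded protein response genes were 1 higher and 6 lower of 14, against 0 and 9 after quantile normalization, with Ddit3 (7.95, 8.18 and 7.96 in D-ME-iPSC and 9.21 and 8.97 in ME, -1.06) and the amino acid carrier subunit Slc3a2 (10.31, 10.34 and 10.35 in D-ME-iPSC and 11.32 and 11.35 in ME) lower. Neural genes were 2 higher and 2 lower of 10, Nes, nestin (8.87, 8.99 and 9.17 in D-ME-iPSC and 5.82 and 5.79 in ME, 3.21), being the largest. Hox genes were 1 higher, Hoxc8 (0.83), and 5 lower of 38 (2 and 4 after quantile normalization), and endoderm genes 2 higher and 2 lower of 15, with Dab2 (-1.41) the largest. Of 6 pericyte genes, 1 was higher, Cspg4 (0.40). Without ME replicate 3, Tet1 differed by -0.89 and Rsad2 by -1.81, and without ME replicate 2 Rsad2 differed by -0.43.

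Differences depended in part on signal level. The upper quartile of probe set values was 9.18, 9.21 and 9.22 on the D-ME-iPSC arrays, against 8.97 and 9.05 on the ME arrays, and was 9.28 on the array labelled ME replicate 1, and no further scaling was applied. When genes were ordered by their mean value and divided into 10 equal bins, the median difference was -0.16 in bin 3 and 0.33 in bin 9. After quantile normalization these medians were -0.05 and 0.08, and the share of called genes that were higher in D-ME-iPSC was 52.2%, against 61.0% in the values as deposited. The medians of the leading lists kept their sign, at 1.15 for cholesterol synthesis, 0.76 for cell division, 0.74 for matrix proteases, 0.41 for contractile genes and -1.62 for milk proteins.

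**Figure D5:**
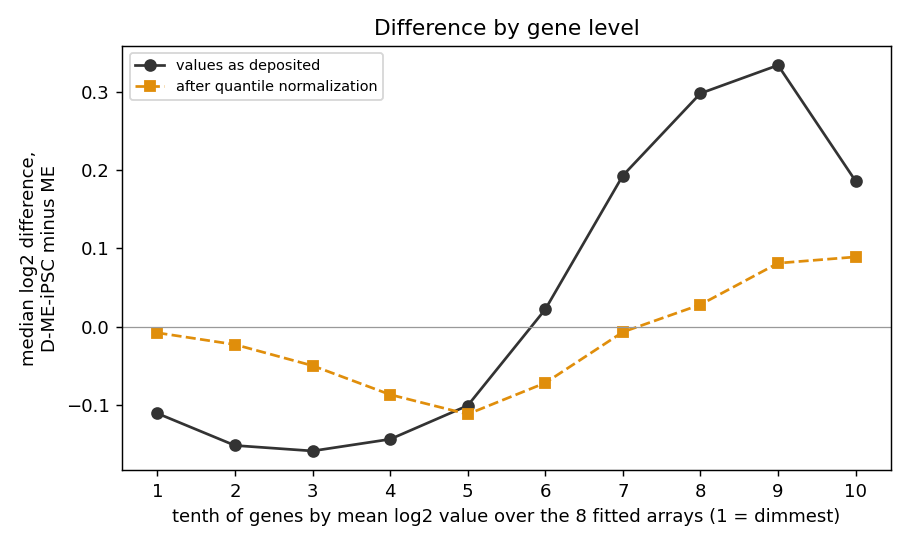
Median log2 difference (D-ME-iPSC minus ME) over 10 bins of the 20422 genes, ordered by mean log2 value, in the values as deposited (solid) and after quantile normalization (dashed). The median runs between -0.16 and 0.33 as deposited and between -0.11 and 0.09 after quantile normalization.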

How the data were processed

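Total RNA was biotin-labelled and hybridised to Affymetrix mouse gene arrays. The authors deposited log2 values per probe set, background-corrected, normalized and summarised by RMA within Partek (versions not given in the sources used here). Probe sets assigned to exactly 1 gene symbol (212138 of 241576) were averaged per gene, giving 20422 genes, of which 2688 are printed under older array names. A model over 8 arrays (3 D-ME-iPSC, ME replicates 2 and 3, 3 D-TF-iPSC) was fitted with limma 3.58.1 in R 4.3.3, with Benjamini-Hochberg adjustment over all genes. Genes at an adjusted p under 0.05 were called. Code was tested on simulated data. The number of arrays limits the precision. Members and gene lists were chosen with earlier results of these data known. Named genes are the 7 markers, the 15 largest called differences each way without overlap of arrays, and the largest called members each way of each list. Others, such as Krt8, Trp63, Mki67, Wap and Fasn, were chosen after their values were seen. The alternatives covered scaling, probe set summary, tests and left-out arrays. Probe sets without a single symbol were left out.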

Additional observations from a re-analysis of the deposited data

Results flagged for a closer look

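The array labelled ME replicate 1 entered neither group, because it correlated above 0.99 with every D-ME-iPSC array. Its position therefore restates that choice and is a description, with no test. Of the 1657 genes called with at least a 2-fold difference, it lay nearer to the D-ME-iPSC mean at 1649 and nearer to the mean of ME replicates 2 and 3 at 8. On a scale where 0 is the D-ME-iPSC mean and 1 the ME mean, its median position over these genes was -0.04 (quartiles -0.13 and 0.04). The SD over genes of its difference from the D-ME-iPSC mean was 0.20, against 0.15 to 0.17 for each D-ME-iPSC array set against the other two, 0.66 for ME replicate 2 and 0.56 for ME replicate 3. Whether its label or its cells differ was not tested. Groups of 2 or 3 arrays are too small for a test of outlying values.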

How the results depend on the processing

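With the array labelled ME replicate 1 counted as ME, the count of called genes was 0 in all, 0 higher and 0 lower, against 7899, 4818 and 3081. Further counts beyond 1.5 times these were 4652 in all and 1347 lower with array weights, 2738 (1876 higher, 862 lower) by the methods' t-test with adjustment, 1657 (1153 higher, 504 lower) at a fold of at least 2, 5190 in all and 1618 lower at an adjusted p under 0.01, and 1749 lower among genes above the median level. The array weights were 0.27 for each ME array and 1.09 to 2.48 for the others. Leaving out 1 array gave 6263 to 10664 called genes, 4076 to 5438 higher and 2183 to 5226 lower. The counts were 10664, 5438 and 5226 without ME replicate 3 and 7618, 4730 and 2888 without ME replicate 2. The share of calls that were higher was 61.0%, against 71.5% among genes above the median level, 71.0% with array weights and 51.0% without ME replicate 3. The cause was not tested.

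With the replicate number as a block, 6867 genes were called (4343 higher, 2524 lower). Arrays with the same number did not deviate together (correlations -0.08 to 0.05), so the numbers were not taken as pairing.

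Of 343 named genes, 302 were called, and all 302 lost their call with the array labelled ME replicate 1 included. Of the 302, 11 lost it after quantile normalization, 32 with the median of the probe sets, 56 with the brightest probe set and 152 by the adjusted t-test. The difference turned with the brightest probe set for Adamts6 (-0.60), Dgat1 (-0.046), Csf1r (-0.13), Acta1 (-0.31), Tnnt3 (0.41), Cubn (-0.97), Dnmt3b (-0.20), Sox2 (-0.90), Ccne1 (-0.42), Dhcr7 (-0.18) and Foxc1 (-0.11). It turned without ME replicate 2 for Cd14 (0.27, and -0.50 without ME replicate 3), Mki67 (-0.39, and 0.66) and Col3a1 (-0.35, and 0.42), and without ME replicate 3 for Fasn (-0.54, and 0.56 without ME replicate 2). No further correction of background was tried on values that RMA had already corrected.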
